A study of Caenorhabditis elegans with 8 samples.

Results

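Old adults of a mir-83 mutant strain were compared with wild-type adults of the same age, at adult day 12, in 4 of the 8 RNA sequencing libraries of the study. The libraries were chosen by their strain and age labels, and every gene counted in both replicates is described. The strains were MT15501, which carries a mutation of mir-83, and N2, the wild-type laboratory strain of Caenorhabditis elegans, with 2 libraries of each at day 12. The other 4 libraries came from the same strains at adult day 4 and serve here to estimate the spread and to set the day 12 difference beside that of younger adults. All worms of both strains and ages grew on plates with FuDR, which stops worms from producing offspring, and total RNA was taken from whole worms after the food bacteria were washed off. Whole-worm RNA mixes all tissues, so fewer cells of a type and less RNA per cell cannot be told apart. The labels give neither the allele nor the number of worms per library, nor do they say that replicates are separate cultures. The p-values therefore reflect the spread among these libraries, some or all of which may be technical.

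MicroRNAs are short RNAs that guide an Argonaute protein to matching sites in messenger RNAs, which are then translated less or degraded sooner. Loss of a microRNA can therefore raise the transcripts it targets directly, and can change other transcripts in either direction through those targets. The microRNA made from mir-83 belongs to a family shared with mammals, and work in worms has linked it to gonad cell migration and to the decline of autophagy in ageing tissue. Adults at day 12 are past their reproductive period, when yolk, muscle and germline transcripts are known to shift. The mir-83 gene lies on chromosome IV at 7841631 to 7841728 of WBcel235, on the plus strand. Its own RNA was not analysed here, so the mutation was not checked by it.

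Depth was 31.3 and 41.2 M reads in the mir-83 day 12 libraries and 34.3 and 36.9 M reads in the N2 day 12 libraries, and 20.3 to 36.2 M reads at day 4 (M, mega). Levels below are in CPM, read counts brought to a common library size with TMM factors, which ran from 1.156 to 1.231 over the day 12 libraries. The mir-83 day 12 libraries were unlike each other. Across genes, which are not independent replicates, their log2 CPM correlated at 0.894, against 0.958 for the N2 day 12 pair. Replicate 1 of mir-83 correlated best with replicate 1 of N2 at day 12, at 0.975. Replicate 2 of mir-83 correlated at 0.952 with replicate 2 of N2 at day 4, above its 0.935 and 0.931 with the N2 day 12 libraries. Results below are therefore given for each replicate. For genes named by smallest p or called by DESeq2, log2 fold changes without a library are given where they moved by over 1.5 times. The log2 fold changes of other genes at day 12 are given with all libraries alone. Markers of intestine, muscle, neurons, hypodermis, oocytes and germline had reads in the libraries of both strains at day 12. Summed over 5 genes each, sperm markers were at 141 and 13.3 CPM in mir-83 and 61.4 and 174 CPM in N2 (replicates 1 and 2). Moulting markers were at 33.5 and 76.3 CPM in mir-83 and 136 and 74.8 CPM in N2, and embryo markers at 6.6 and 29.6 CPM in mir-83 and 10.4 and 10.5 CPM in N2. The 5 male-neuron markers summed to at most 3.84 CPM in any day 12 library.

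No gene passed the test between mir-83 and N2 at day 12, of 15847 genes tested (quasi-likelihood test of edgeR, p adjusted by Benjamini and Hochberg, threshold 0.05). The lowest adjusted p was 0.9996. At an unadjusted p under 0.05 there were 306 genes, or 1.93%, of which 29 (0.183%) were higher and 277 (1.75%) lower in mir-83. DESeq2 called 4 genes, scb-1 and nep-22 higher (0.0126% of genes) and 2 lower (0.0126%). At day 4, the same edgeR test called 701 genes higher and 417 lower in mir-83, or 4.42% and 2.63% of those tested.

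The replicates did not show the same strain difference at day 12. Across genes, the difference in log2 CPM between mir-83 and N2 in replicate 1 correlated with that in replicate 2 at -0.41, against 0.67 at day 4, given as a description. The direction was the same in both replicates for 41.8% of genes. Taken alone, replicate 1 had 7.77% of genes at least 2-fold higher in mir-83 and 8.96% lower, and replicate 2 had 6.77% higher and 14.3% lower. Genes at least 2-fold higher in replicate 1 and at least 2-fold lower in replicate 2 numbered 895, or 5.65%, and 223 genes, or 1.41%, had the reverse. By contrast, 42 genes, or 0.265%, were at least 2-fold higher in both replicates, and 94, or 0.593%, at least 2-fold lower in both. Of these, 32 and 76 had a mean of at least 10 reads over the day 12 libraries. Where both mir-83 libraries must lie above both N2 libraries, 874 genes, or 5.52%, met the condition, and 1304, or 8.23%, lay below.

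**Figure D1:**
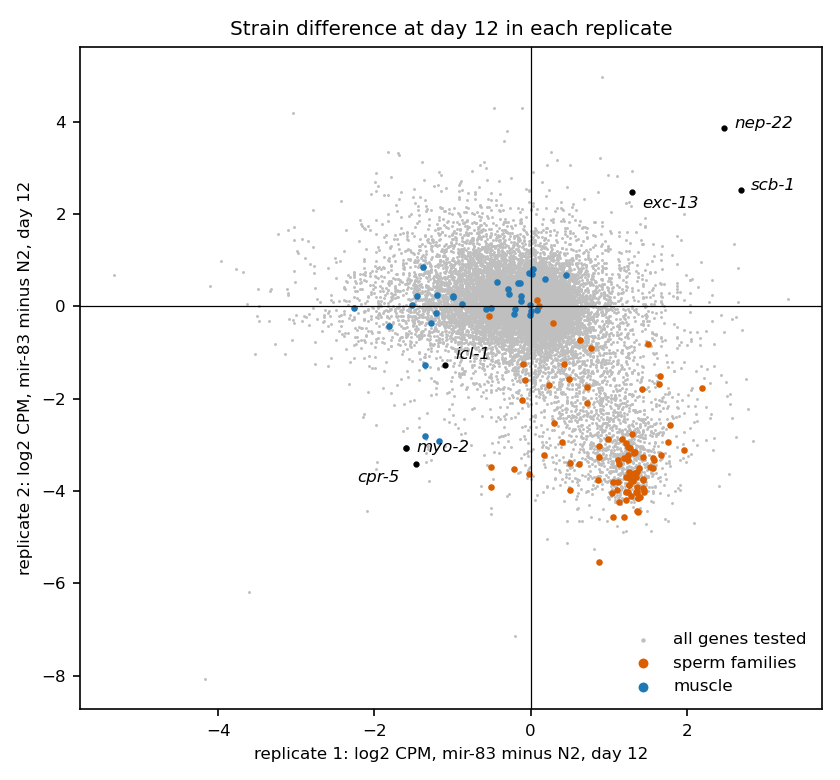
Each point is a gene tested, with the mir-83 minus N2 difference in log2 CPM at day 12 in replicate 1 on the x axis and in replicate 2 on the y axis. Sperm-family genes (orange) sit at lower right, higher in mir-83 in replicate 1 and lower in replicate 2, while nep-22 and scb-1 sit at upper right and cpr-5, myo-2 and icl-1 at lower left.

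Among genes higher in mir-83 in both replicates, scb-1 and nep-22 stood at the top by p. The gene scb-1, named for its role in sensitivity to the drug bleomycin, had 30.3 and 26.5 CPM in mir-83 libraries, against 4.64 and 4.56 CPM in N2 libraries (replicates 1 and 2). Its groups lay far apart and each was tight, at a log2 fold change 2.61 (SE 0.46, 2 libraries per group). Its adjusted p was 0.9996 by edgeR and 2.598e-06 by DESeq2. The neprilysin-like peptidase gene nep-22 had 1.99 and 5.98 CPM in mir-83 and 0.308 and 0.356 CPM in N2. Both mir-83 libraries were well above both N2 libraries, although they differed from each other, and the log2 fold change was 3.43 (SE 0.57, 2 libraries per group). Its adjusted p was 0.9996 by edgeR and 1.98e-06 by DESeq2. With a library left out in turn it ran from 2.80 to 3.94 for nep-22 and from 2.37 to 2.90 for scb-1.

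The other 10 genes named as higher, by smallest p with the same direction in both replicates, had log2 fold changes between 0.58 and 2.79, none past the edgeR or DESeq2 threshold. They included 3 C-type lectins, sugar-binding proteins often linked to defence. The 136 C-type lectin genes tested had medians of -0.098 in replicate 1 and 0.242 in replicate 2. Of those 136, 29, or 21.3%, were higher in both replicates and 25, or 18.4%, lower in both. Over all genes these shares were 20.9% and 20.8%, so the family as a whole was close to all genes. The lectin gene clec-85 had 21.7 and 48.5 CPM in mir-83 and 18.8 and 14.8 CPM in N2, and clec-190 had 2.51 and 8.90 CPM in mir-83 and 1.59 and 2.44 CPM in N2. In both genes the replicate 2 library of mir-83 was far above the others and replicate 1 only slightly above N2. The third, clec-3, had at most 1.01 CPM in any day 12 library. Without replicate 2 of mir-83 the log2 fold change was 0.278 for clec-85, against 1.03 with all libraries and 1.639 without replicate 1 of mir-83. It was 0.54 for clec-190, against 1.36, and 1.473 for clec-3, against 2.79.

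Further genes of this group belong to detoxification, cuticle and nutrient sensing. The glutathione S-transferase gene gst-14 had 0.512 and 2.42 CPM in mir-83, against 0.205 and 0.289 CPM in N2. The collagen gene col-62 had 0.620 and 1.47 CPM in mir-83 and 0.205 and 0.445 CPM in N2. Both genes were low in every day 12 library, with the groups apart. The gene lmtr-2, which encodes a subunit of the lysosomal Ragulator complex, had 74.4 and 67.2 CPM in mir-83 and 56.2 and 39.3 CPM in N2, a smaller but steady difference. The thaumatin-family gene thn-2 had 45.9 and 51.4 CPM in mir-83 and 34.9 and 14.3 CPM in N2. The genes dct-8 and bmy-1 were likewise higher in both mir-83 libraries. Only exc-13 of the 12 had overlapping groups, with 6.36 and 52.7 CPM in mir-83 and 2.54 and 9.38 CPM in N2. The choice by smallest p favours groups that lie apart, which held with mir-83 above for 5.52% of all genes. Without replicate 2 of mir-83 the log2 fold change was 0.764 for gst-14, against 2.50 with all libraries, 0.914 for exc-13, against 2.07, 0.78 for dct-8, against 1.84, and 0.556 for thn-2, against 1.14. For thn-2 it was 0.72 without replicate 2 of N2.

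The genes named as lower in mir-83 held a germline helicase, factors of ribosome production and translation, and other long genes. The gene glh-1 encodes a Vasa-like RNA helicase of germ granules and had 325 and 340.4 CPM in mir-83 and 674 and 667 CPM in N2. Its 4 libraries fell into tight pairs, and its log2 fold change was -1.01 ± 0.24 (SE, n = 2 per group, edgeR adjusted p = 0.9996). The gene rpoa-1, for the largest subunit of RNA polymerase I, which makes ribosomal RNA, had 39.6 and 41.5 CPM in mir-83 and 121 and 72.9 CPM in N2. The gene iffb-1, for a translation initiation factor, had 92.1 and 106 CPM in mir-83 and 229 and 163 CPM in N2. In both, the N2 libraries were the more variable pair and lay above both mir-83 libraries.

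The SET domain gene set-9 had 39.6 and 48.9 CPM in mir-83 and 223 and 81.5 CPM in N2. The ubiquitin ligase gene eel-1 had 138 and 108 CPM in mir-83 and 438 and 192 CPM in N2. The gene spat-2, named as a suppressor of a polarity mutant, had 49.05 and 48.6 CPM in mir-83 and 169.5 and 88.3 CPM in N2. All 3 were highest in replicate 1 of N2. Without that library the log2 fold change was -0.949 for set-9, against -1.64 with all libraries, and -0.747 for eel-1, against -1.3. The centriole gene sas-7, gpch-1 and the pharynx morphology gene phm-2 showed the same order of libraries or a nearly equal N2 pair, with mir-83 below N2 in both replicates. For sas-7 the log2 fold change was -0.863 without replicate 1 of N2, against -1.46 with all libraries.

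The remaining genes of this group were lower in mir-83 by a similar fold in both replicates or more so in replicate 2. The gene kin-36 had 0.889 and 2.1 CPM in mir-83 and 4.16 and 11.3 CPM in N2. The antifungal-type peptide gene fip-2, of a family induced by fungal infection, had 5.82 and 6.44 CPM in mir-83 and 14.7 and 32.5 CPM in N2. Its log2 fold change was -1.91 with all libraries and -1.219 without replicate 2 of N2. The cathepsin B-like protease gene cpr-5 had 9.27 and 1.19 CPM in mir-83 and 25.8 and 13.2 CPM in N2, at a log2 fold change of -2.21 (SE 0.60, 2 libraries per group, adjusted p = 0.9996 by edgeR). For cpr-5 this was -3.592 without replicate 1 of mir-83 and -1.361 without its replicate 2. In all 12 genes both mir-83 libraries lay below both N2 libraries, as in 8.23% of all genes, and the choice by smallest p favours this. Gene length moved with this group: when genes were cut into 5 equal groups by summed exon length, 10 of the 12 lay in the group of longest genes, with a median of 3561 bases, while 7 of the 12 named as higher lay in the group of shortest genes, with a median of 731 bases. The part of length in these differences was not tested.

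DESeq2 called 2 further genes lower, both without a gene name in the annotation beyond a sequence name. The gene Y110A2AL.9 had 0.431 and 0.767 CPM in mir-83 and 1.87 and 9.54 CPM in N2. Its log2 fold change by edgeR was -3.07 with all libraries and -1.804 without replicate 2 of N2. The gene Y47H9A.1, annotated with the shared symbol C17D12.3 (Y47H9A.1), had 0.485 and 0.162 CPM in mir-83 and 6.57 and 16.23 CPM in N2. Its copy C17D12.3 (C17D12.3) had 0.323 and 0 CPM in mir-83 and 6.88 and 16.3 CPM in N2. Reads of the pair may be shared, so the values of each are uncertain. At day 4, C17D12.3 (Y47H9A.1) had at most 0.174 CPM in either strain.

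**Figure D2:**
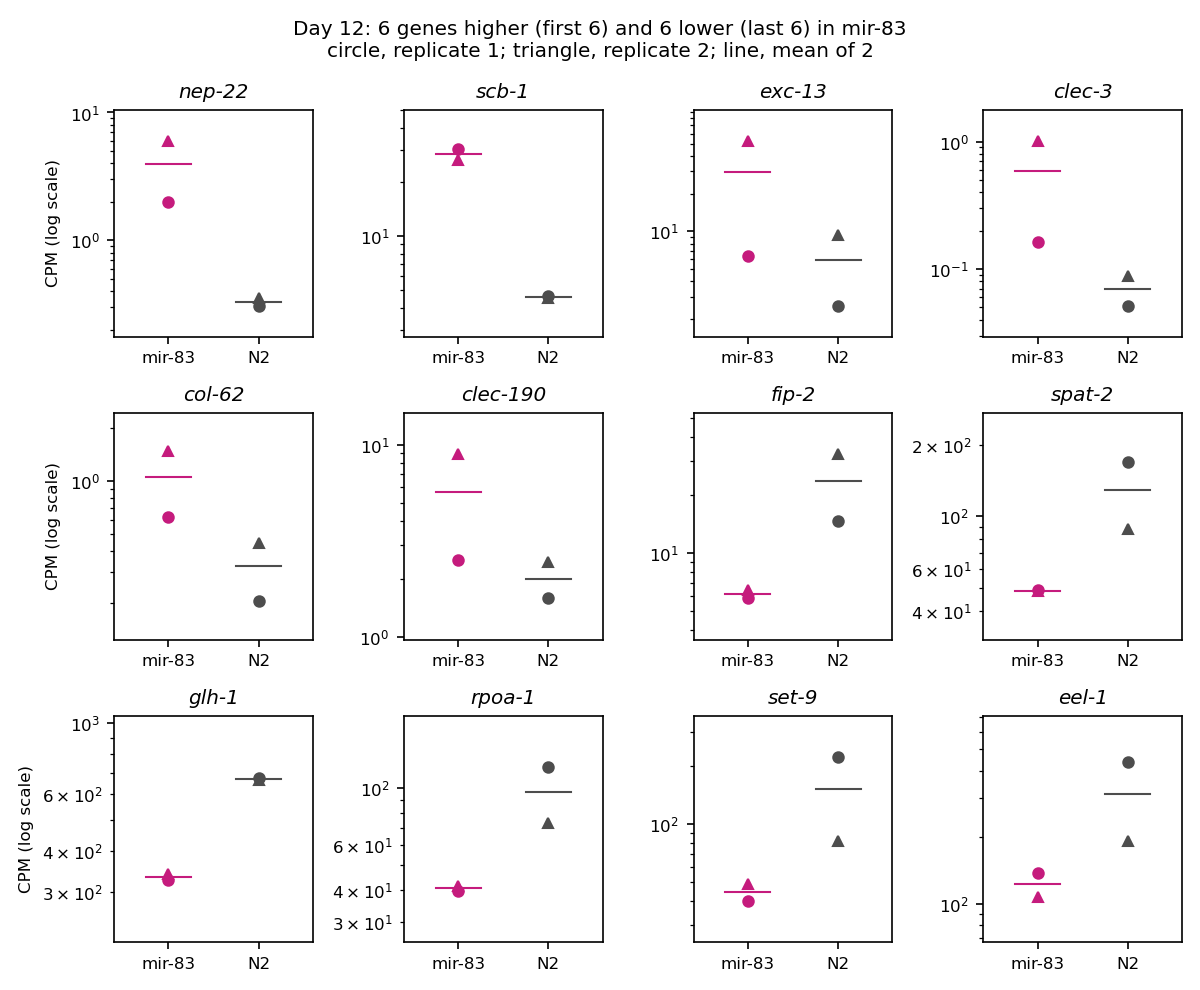
Levels in CPM (log axis) at day 12 of the 6 genes with the smallest p among those higher in mir-83 in both replicates and the 6 among those lower, with mir-83 libraries left and N2 libraries right in each panel. Circles are replicate 1, triangles replicate 2 and lines the mean of 2 libraries, and scb-1 and glh-1 show the tightest pairs.

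Genes that earlier work tied to miR-83 were examined as a list of 8 tested genes, and none passed the edgeR test. Their median difference between mir-83 and N2 was -0.52 in replicate 1 and 0.26 in replicate 2 on the log2 scale, against 0.02 and -0.02 over all genes tested. The gene cup-5, for a lysosomal ion channel reported as a target in autophagy, had 93.5 and 92.9 CPM in mir-83 and 95 and 71.4 CPM in N2, with overlapping groups. The GTPase gene cdc-42, a regulator of cell shape and migration, had 244 and 138 CPM in mir-83 and 239 and 124.5 CPM in N2, so both strains differed more between replicates than from each other. The integrin gene pat-3 had 123.4 and 170.5 CPM in mir-83 and 187 and 109 CPM in N2, with opposite directions in the replicates. The transcription factor gene peb-1 had 3.02 and 2.71 CPM in mir-83 and 7.11 and 2.76 CPM in N2, lower in both replicates but nearly equal in replicate 2.

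The other 4 were not alike either. The FOXO transcription factor gene daf-16, the main effector of insulin signalling on lifespan, had 137 and 75.4 CPM in mir-83 and 186 and 98.1 CPM in N2. It was lower in mir-83 within each replicate by similar amounts, although the groups overlapped, at a log2 fold change of -0.41 (SE 0.22, 2 libraries per group, adjusted p = 0.9996 by edgeR). The saposin-like gene spp-9 had 77.2 and 89.9 CPM in mir-83 and 103.7 and 243 CPM in N2, with the groups apart. The cofactor gene din-1 had 17.1 and 122 CPM in mir-83 and 77.0 and 93.7 CPM in N2, and the collagen gene col-178 had 4.61 and 67.5 CPM in mir-83 and 17.6 and 42.6 CPM in N2. In both, the mir-83 library of replicate 1 was the lowest and that of replicate 2 the highest of the 4.

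The 6 protein-coding genes within 20 kb of mir-83 on chromosome IV were also followed, and none passed the edgeR test. The nearest, C06A6.7, had 5.71 and 0.747 CPM in mir-83 and 2.46 and 4.31 CPM in N2, in opposite directions in the replicates. C06A6.2 had 12.26 and 24.9 CPM in mir-83 and 13.96 and 15.8 CPM in N2.

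The list of genes that make or use microRNAs also held the microRNA target gene lin-41. Over its 17 genes the median was -0.88 in replicate 1 and 0.01 in replicate 2. Of these, 5, or 29.4%, had both mir-83 libraries below both N2 libraries, against 8.23% of all genes. The list's median summed exon length was 3162 bases, against 1309 bases over all genes tested. Among the longest genes, from 2214 bases, 19.2% met the same condition, and the part of length was not tested. The exonuclease gene xrn-2, which turns over released microRNAs, had 23.3 and 53.7 CPM in mir-83 and 128 and 78.3 CPM in N2. The gene lin-41, for an RNA-binding TRIM protein of oocytes and a classic microRNA target, had 146 and 113 CPM in mir-83 and 320 and 134 CPM in N2. Both were lower in each replicate, chiefly in replicate 1. The microRNA Argonaute genes alg-1 and alg-2 went opposite ways between replicates or were level: alg-1 had 11.5 and 19.2 CPM in mir-83 and 25.5 and 18.6 CPM in N2, and alg-2 had 27.9 and 67.4 CPM in mir-83 and 76.1 and 37.1 CPM in N2.

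Of 35 muscle genes tested, 4, or 11.4%, were at least 2-fold lower in mir-83 in both replicates, against 0.593% of all genes, and none passed the edgeR test. These 4 were the pharyngeal myosin genes myo-1 and myo-2, the pharyngeal troponin T gene tnt-4 and the titin gene ttn-1. The gene myo-2 had 1.19 and 1.53 CPM in mir-83 and 3.72 and 13.3 CPM in N2. The gene myo-1 had 0.889 and 0.646 CPM in mir-83 and 2.08 and 5.29 CPM in N2, and tnt-4 had 0.404 and 0.424 CPM in mir-83 and 1.13 and 3.33 CPM in N2. In all 3 the groups were apart, and the replicate 2 library of N2 was highest. The pharyngeal troponin I gene tni-4, named after its values were seen, had 11.5 and 22.1 CPM in mir-83 and 10.9 and 23.3 CPM in N2, so these genes of the pharynx did not all differ.

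Myosin and paramyosin genes of body wall muscle, named after their values were seen, gave other values. The main body wall myosin gene unc-54 had 6.25 and 43.9 CPM in mir-83 and 30.3 and 44.9 CPM in N2, lower in replicate 1 and level in replicate 2. The second body wall myosin gene myo-3 had 6.20 and 23.9 CPM in mir-83 and 11.5 and 23.2 CPM in N2, and the paramyosin gene unc-15 had 9.51 and 47.9 CPM in mir-83 and 27.4 and 46.8 CPM in N2. In all 3 the replicate 1 library of mir-83 was the lowest of the 4 and the replicate 2 libraries of both strains were alike. The abundant actin gene act-2 had 818 and 553 CPM in mir-83 and 949 and 619 CPM in N2. The list's median was -0.44 in replicate 1 and 0.045 in replicate 2.

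Yolk and intestine lists had medians below that of all genes in both replicates, further in replicate 1. The 6 vitellogenin genes (yolk proteins, produced by intestinal cells) all were lower in mir-83 in replicate 1, and 3 of them in replicate 2. Their list median was -1.29 and -0.13. Over all 15847 genes tested, 7685 were lower in replicate 1 and 8123 in replicate 2. The gene vit-6 had 351 and 894 CPM in mir-83 and 1199 and 1427 CPM in N2, with the groups apart, and vit-2 had 419 and 1333 CPM in mir-83 and 1211 and 2465 CPM in N2, with the groups overlapping. The near-identical genes vit-3, vit-4 and vit-5 may share reads, and vit-5 had 629 and 2059 CPM in mir-83 and 1315 and 1640.0 CPM in N2. None of the vitellogenin genes passed the edgeR test.

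In the intestine list, 13 of 24 genes, or 54.2%, were lower in mir-83 in both replicates, against 20.8% of all genes, and none passed the edgeR test. The brush border actin gene act-5 had 15.2 and 23.2 CPM in mir-83 and 29.8 and 62.7 CPM in N2. The aspartyl protease gene asp-1 had 57.7 and 121 CPM in mir-83 and 153 and 178 CPM in N2. In both, the groups were apart. The cathepsin B-like gene cpr-4 had 10.8 and 8.42 CPM in mir-83 and 22.4 and 30.9 CPM in N2, which resembles cpr-5 above. The lysosomal list as a whole did not share this, with medians of -0.17 and 0.34 over 47 genes, and its most abundant gene asp-6 had 272 and 1642 CPM in mir-83 and 447 and 935 CPM in N2.

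The gene icl-1 encodes the bifunctional enzyme of the glyoxylate cycle, which lets worms turn fat into sugar. It had 105 and 92.6 CPM in mir-83 and 224 and 225 CPM in N2. The 2 pairs were tight and apart, at a log2 fold change of -1.201 (SE 0.43, 2 libraries per group, adjusted p = 0.9996 by edgeR). The 25 genes of fatty acid synthesis, desaturation and elongation had medians of -0.217 and -0.007, and 7 of them, or 28%, were lower in both replicates, against 20.8% of all genes. The gene mdt-15, a Mediator subunit that drives fatty acid desaturase genes, had 73.5 and 45.2 CPM in mir-83 and 140 and 66.8 CPM in N2. The acetyl-CoA carboxylase gene pod-2 had 82.7 and 135 CPM in mir-83 and 252 and 169.6 CPM in N2. The fatty acid synthase gene fasn-1 had 63.0 and 149.7 CPM in mir-83 and 195 and 150.4 CPM in N2, level in replicate 2.

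Germline, nucleolar and translation genes had list medians near that of all genes in replicate 1 and below it in replicate 2, and none passed the edgeR test. The medians in replicates 1 and 2 were 0.03 and -0.35 for germline and meiosis genes, 0.03 and -0.42 for nucleolus and RNA polymerase I genes, and 0.03 and -0.18 for translation factors, against 0.02 and -0.02 over all genes. Of 28 nucleolus and RNA polymerase I genes, 13, or 46.4%, were lower in both replicates, against 20.8% of all genes, and 8, or 28.6%, had both mir-83 libraries below both N2 libraries, against 8.23% of all genes. The nucleolar gene dao-5 had 131 and 218 CPM in mir-83 and 285 and 286 CPM in N2. The fibrillarin gene fib-1, for the methyltransferase that modifies ribosomal RNA, had 368 and 549.6 CPM in mir-83 and 830.2 and 675 CPM in N2. Both had the replicate 1 library of mir-83 lowest, unlike the list, whose 28 genes split into 15 higher and 13 lower in replicate 1.

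Of 36 germline and meiosis genes, 11, or 30.6%, were lower in both replicates, against 20.8% of all genes. The helicase gene glh-2, a close relative of glh-1 with which it may share reads, had 113 and 109 CPM in mir-83 and 281.5 and 178.1 CPM in N2. The poly(A) polymerase gene gld-2 had 74.5 and 68.9 CPM in mir-83 and 137 and 96.3 CPM in N2. The translational repressor gene gld-1 had 655 and 417 CPM in mir-83 and 881 and 414 CPM in N2, so its replicates did not share a direction. Over 64 translation factors and tRNA synthetases, 24, or 37.5%, were lower in both replicates, against the same 20.8%. The elongation factor gene eef-1A.1 had 4689 and 6363 CPM in mir-83 and 9279 and 7951 CPM in N2, with the groups apart.

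Small RNA pathway genes had medians of -0.002 in replicate 1 and -0.34 in replicate 2 over 44 genes, of which 17, or 38.6%, were lower in both, against 20.8% of all genes. The nonsense-mediated decay helicase gene smg-2 had 40.5 and 65.6 CPM in mir-83 and 104.1 and 101 CPM in N2. The Argonaute gene csr-1, which marks germline transcripts as self, had 260.3 and 168 CPM in mir-83 and 342 and 271 CPM in N2. The Piwi gene prg-1 had 687 and 357 CPM in mir-83 and 696 and 633 CPM in N2, nearly level in replicate 1 and lower in replicate 2. These genes are long, with a median summed exon length of 3019 bases over the list, against 1309 bases over all genes tested.

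Genes of the respiratory chain had medians above that of all genes in both replicates, and ribosomal lists in replicate 1 alone. Of 75 nuclear genes of the respiratory chain and ATP synthase, 41, or 54.7%, were higher in mir-83 in both replicates, against 20.9% of all genes, with medians of 0.25 and 0.12 on the log2 scale. For 14 of them, or 18.7%, both mir-83 libraries lay above both N2 libraries, against 5.52% of all genes. For none did both lie below, against 8.23% of all genes. Among the shortest genes, of 108 to 758 bases, these shares were 9.25% above and 3.56% below. The complex I gene ndua-1 had 116 and 72.1 CPM in mir-83 and 87.9 and 44.4 CPM in N2, and ndub-2 had 176 and 174 CPM in mir-83 and 130.0 and 140.4 CPM in N2. The differences were small, and no gene of the list passed the edgeR test. The longer ATP synthase genes were lower instead: atp-1 had 696 and 549 CPM in mir-83 and 1044 and 585 CPM in N2, and atp-2 had 697 and 591 CPM in mir-83 and 977 and 619 CPM in N2. The list's median summed exon length was 791 bases, and the part of length in the list's values was not tested.

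The 80 cytosolic ribosomal protein genes had a median of 0.27 in replicate 1 and -0.18 in replicate 2. Of these, 47 were higher in the first and lower in the second. Over all 15847 genes tested, 8127 were higher in replicate 1, and 3319 of those were also higher in replicate 2. Their summed level was 118600 and 115900 CPM in mir-83 and 98830 and 130900 CPM in N2, so it differed more between the N2 libraries than between strains. The 65 mitochondrial ribosomal protein genes had medians of 0.32 and -0.12. Of these, 44 were lower in replicate 2, against 8123 of all 15847 genes tested. The 15 genes of the mitochondrial unfolded protein response had medians of -0.045 and -0.165.

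Sperm genes held the widest gap between replicates of the 49 lists. Over 93 genes of the major sperm protein and other sperm families, the median difference between mir-83 and N2 was 1.25 in replicate 1 and -3.42 in replicate 2. Of the 93, 63, or 67.7%, were at least 2-fold higher in replicate 1 and at least 2-fold lower in replicate 2, against 5.65% of all genes. Major sperm proteins form the cytoskeleton that moves worm sperm. The gene msp-36 had 101 and 7.87 CPM in mir-83 and 43.1 and 103.6 CPM in N2, and msp-40 had 87.6 and 7.65 CPM in mir-83 and 32.3 and 102.5 CPM in N2. The list's summed level was 2991 and 441 CPM in mir-83 and 1466 and 3242 CPM in N2. The replicate 2 library of mir-83 was thus the lowest and the replicate 2 library of N2 the highest of the 4, with replicate 1 between them. Members of the family are near-identical and may share reads.

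Genes of early embryos and the cuticle went the opposite way. The 42 tested genes of the early embryonic list, which also holds the maternal factor gene skn-1, had medians of -0.54 and 1.24 in replicates 1 and 2. Of these, 29 were lower in the first and higher in the second. Over all 15847 genes tested, 7685 were lower in replicate 1, and 3299 of those were also lower in replicate 2. The early embryonic gene sdz-28, a target of the maternal factor SKN-1, had 3.56 and 25.9 CPM in mir-83 and 6.21 and 7.85 CPM in N2. The 147 cuticle collagen genes had medians of -0.81 and 0.20, and a summed level of 399.5 and 3878 CPM in mir-83 and 738 and 2085 CPM in N2. The adult collagen gene col-19 had 5.174 and 125 CPM in mir-83 and 6.75 and 48.4 CPM in N2, so in both strains replicate 2 was higher. The 16 basement membrane genes had medians of -0.94 and 0.21, and the type IV collagen gene let-2 had 11.3 and 96.3 CPM in mir-83 and 60.9 and 109 CPM in N2.

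The genes with the largest spread between replicates, named by that difference and given with no test, included these. The gene clx-1 had 5.15 and 163 CPM in mir-83 and 42.7 and 8.91 CPM in N2. The cathepsin B-like gene cpr-2 had 2.51 and 97.3 CPM in mir-83 and 40.0 and 49.3 CPM in N2, and the collagen gene col-80 had 0.404 and 23.8 CPM in mir-83 and 3.46 and 8.58 CPM in N2. In these 3 the mir-83 library of replicate 2 stood far above that of replicate 1. The reverse held for the major sperm protein gene msp-10, with 37.5 and 1.25 CPM in mir-83 and 14.4 and 28.9 CPM in N2. The glucuronosyltransferase-type gene ugt-35 had 0.485 and 0 CPM in mir-83 and 0.565 and 8.58 CPM in N2, so its spread came from the replicate 2 library of N2.

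Stress, detoxification and defence lists differed in how their replicates compared. The metallothionein gene mtl-1, a metal-binding stress gene, had 117 and 389.9 CPM in mir-83 and 81.2 and 87.6 CPM in N2, with the groups apart (log2 fold change 1.68 ± 0.79, SE, n = 2 per group, edgeR adjusted p = 0.9996). The lysozyme gene lys-7 had 781 and 2169 CPM in mir-83 and 663 and 1217 CPM in N2, with the groups overlapping. The 37 lysozyme and saposin-like genes tested had medians of -0.328 and 0.294. The 59 antimicrobial and pathogen response genes had medians of -0.14 and 0.86, and 21 of them, or 35.6%, were higher in both replicates, against 20.9% of all genes. The 44 glutathione S-transferase genes had medians of 0.17 and 0.22, with 15, or 34.1%, higher in both. In each replicate 26 of them were higher, against 8127 in replicate 1 and 7713 in replicate 2 of all 15847 genes tested. The 25 antioxidant enzyme genes had medians of 0.106 and -0.016, with 10, or 40.0%, higher in both. Among the glutathione S-transferase genes, gst-4, a common reporter of oxidative stress, had 8.22 and 49.2 CPM in mir-83 and 5.49 and 18.2 CPM in N2, and gst-7 had 175 and 169 CPM in mir-83 and 141 and 123.3 CPM in N2. The 283 F-box genes, a large family of ubiquitin ligase adaptors, had medians of -0.23 and 0.52, with 60 genes, or 21.2%, higher in both, close to the 20.9% of all genes. No gene of these lists passed the edgeR test. Median summed exon length was 451 bases in the antimicrobial, 747 in the glutathione S-transferase and 802 in the antioxidant list, against 1309 over all genes. The part of length in these lists was not tested.

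Of 22 large chaperone and heat shock factor genes, 13, or 59.1%, were lower in mir-83 in both replicates, against 20.8% of all genes, and none passed the edgeR test. The 14 small heat shock protein genes had medians of -0.143 and 0.116. Of these, 8 were higher in replicate 2, against 7713 of all 15847 genes tested. The constitutive Hsp70 gene hsp-1 had 931 and 1320.0 CPM in mir-83 and 1927 and 1661 CPM in N2, with the groups apart. The Hsp90 gene hsp-90 had 3291 and 2753 CPM in mir-83 and 3203 and 3157 CPM in N2. The median of the large chaperone list was -0.17 in replicate 1 and -0.13 in replicate 2.

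Over all 49 gene lists, no member passed the edgeR test, and the list medians of the replicates had opposite signs in 35 lists. In 24 of these the median was lower in mir-83 in replicate 1 and higher in replicate 2, and in 11 the reverse. The median was higher in mir-83 in both replicates in 5 lists and lower in both in 9. The lists with a median lower in both included the vitellogenins, the intestine and the hedgehog-related genes, whose 66 genes had medians of -0.54 and -0.04. The 5 tested male-neuron genes of a list of 9 also had medians lower in both, at -0.35 and -0.53.

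**Figure D3:**
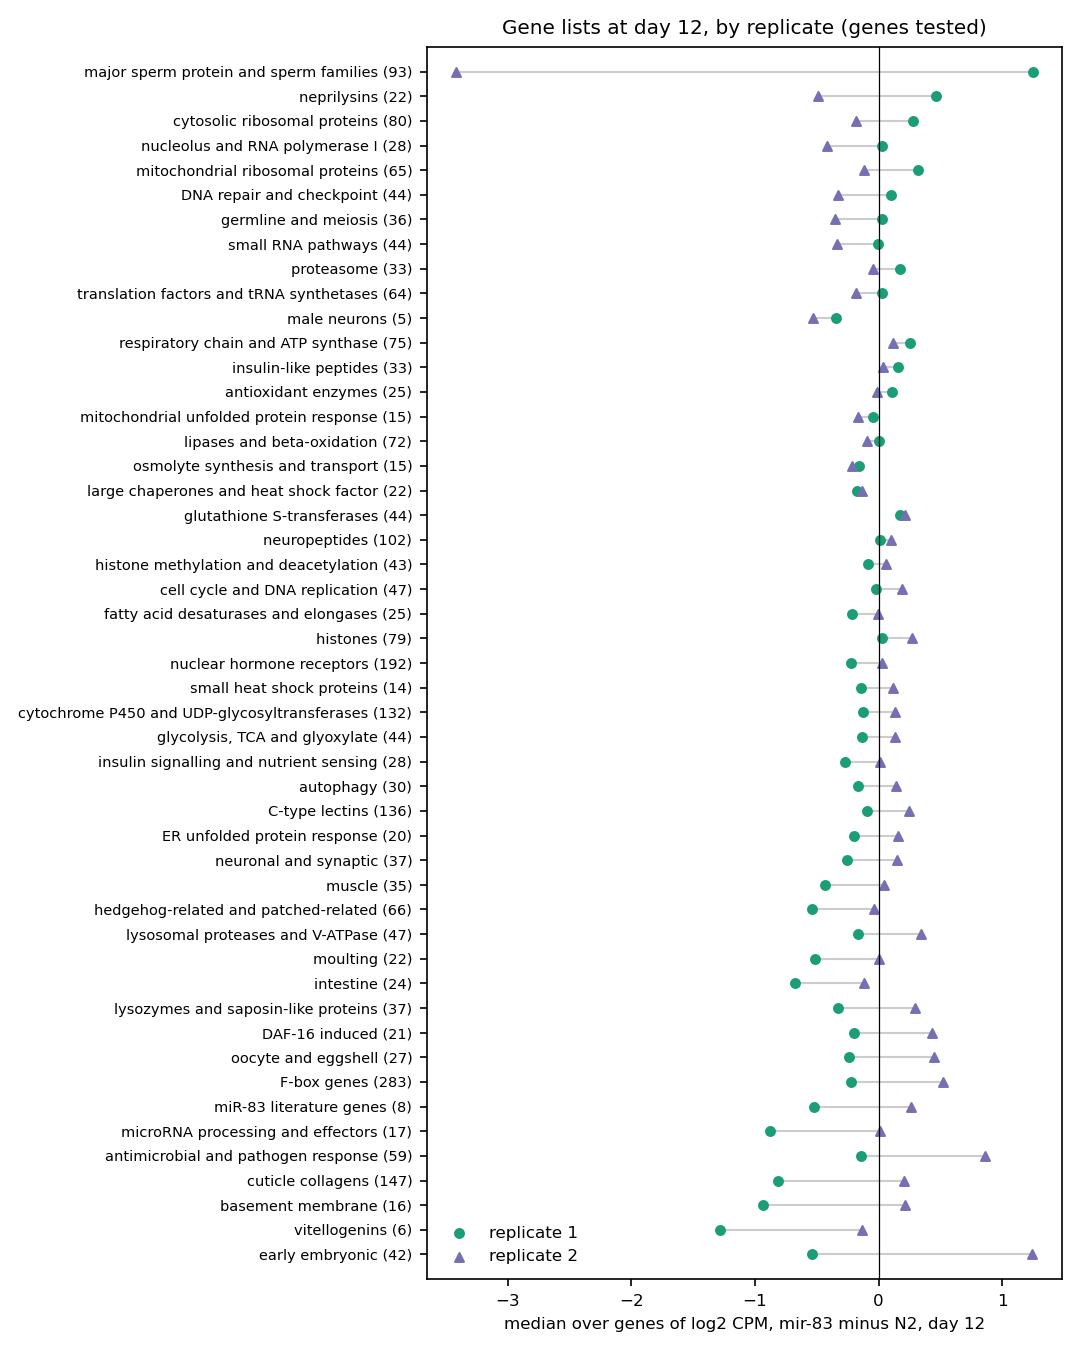
Median difference between mir-83 and N2 in log2 CPM at day 12 over the tested genes of each list (number in brackets), with replicate 1 as circles and replicate 2 as triangles, sorted by the gap between them. Sperm families at the top and early embryonic genes at the bottom have the widest gaps in opposite directions, while respiratory chain and glutathione S-transferase genes lie right of 0 in both replicates.

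Chromosome X stood apart from the autosomes in opposite directions in the replicates. Its 2188 genes had a median difference between mir-83 and N2 of -0.27 in replicate 1 and 0.28 in replicate 2, while autosome medians lay between -0.002 and 0.106 in replicate 1 and between -0.099 and 0.002 in replicate 2. The medians of X were the same with the sperm list left out, since it has no member there. Genes at least 2-fold higher in replicate 1 and lower in replicate 2 made up 0.366% of genes on X and 4.50% to 9.58% on the autosomes. At day 4 the medians of X were 0.11 and 0.09. These values were noticed in the data and have no test.

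Gene length went with the difference in both replicates. In the shortest of the 5 groups, with summed exons of 108 to 758 bases, the median difference was 0.24 in replicate 1 and 0.10 in replicate 2. In the longest group, from 2214 to 56044 bases, it was -0.35 and -0.11. Both mir-83 libraries lay below both N2 libraries for 19.2% of the longest genes and 3.56% of the shortest, and above them for 1.42% of the longest and 9.25% of the shortest. The part of length in the named genes and in the gene lists was not tested. Against 1309 bases over all genes, list medians were 4935 bases for vitellogenins, 2237 for germline, 1928 for large chaperones and 1864 for translation genes. They were 1746 bases for nucleolus and RNA polymerase I genes and 1711 for intestine genes.

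**Figure D4:**
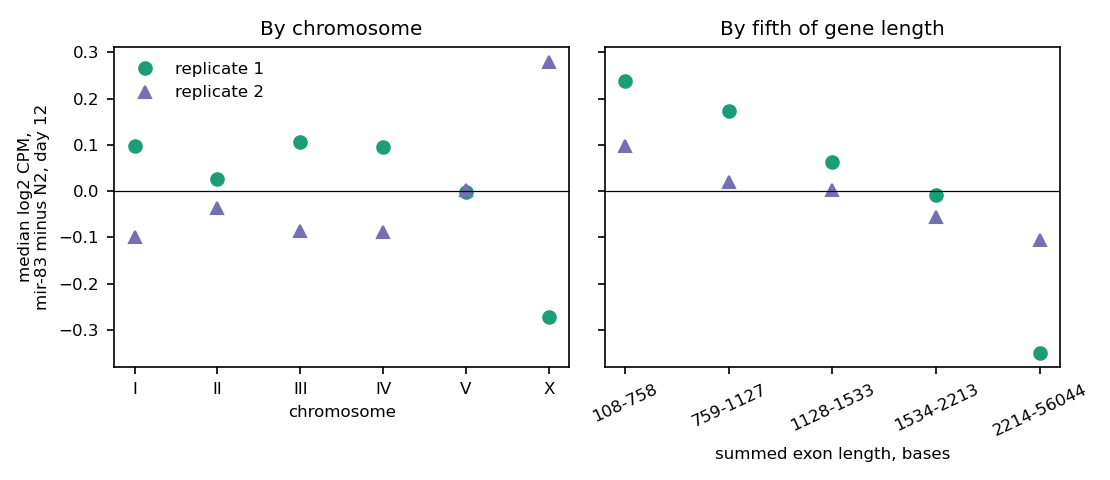
Median difference between mir-83 and N2 in log2 CPM at day 12, by chromosome (left) and by 5 groups of summed exon length in bases (right), with replicate 1 as circles and replicate 2 as triangles. Chromosome X lies at -0.27 in replicate 1 and 0.28 in replicate 2, and medians decline from the shortest to the longest genes in both replicates.

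The day 12 differences were set beside those at day 4, which come from other libraries. Of the 42 genes at least 2-fold higher in mir-83 in both replicates at day 12, 15 (0.0947% of all genes) were so at day 4 too, which is 35.7% of the day 12 list and 0.91% of the 1649 genes of the day 4 list. Of the 94 lower at day 12, 9 (0.0568% of all genes) were also lower at day 4, or 9.57% of that list and 0.462% of the 1946 genes at day 4. In contrast, 23 of the 94 (0.145% of all genes) were at least 2-fold higher in mir-83 at day 4, which is 24.5% of the day 12 list and 1.39% of the day 4 list. The reverse, higher at day 12 and lower at day 4, held for 4 genes (0.0252%). In all, 10.4% of tested genes were at least 2-fold higher in both replicates at day 4 and 12.3% lower.

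The 15 genes higher at both ages included scb-1, nep-22, col-62 and gst-14. At day 4 nep-22 had 28.97 and 36.8 CPM in mir-83 and 1.09 and 1.83 CPM in N2, with the groups far apart (log2 fold change 4.54 ± 0.58 at day 4, SE, n = 2 per group, edgeR adjusted p = 0.02113). At day 4 scb-1 had 33.9 and 29.1 CPM in mir-83 and 13.04 and 5.30 CPM in N2 (log2 fold change 1.86 ± 0.45, SE, n = 2 per group, edgeR adjusted p = 0.04777). These day 4 levels rest on TMM factors of 0.644 and 0.596 for mir-83 and 1.162 and 1.078 for N2. The effect at day 12 minus that at day 4 was 0.76 ± 0.62 for scb-1 (SE, edgeR adjusted p = 0.575) and -1.11 ± 0.75 for nep-22 (SE, edgeR adjusted p = 0.488). With plain library sizes it was 1.635 for scb-1 and -0.236 for nep-22. With a library left out in turn it ran from 0.129 to 1.305 for scb-1 and from -1.707 to -0.569 for nep-22.

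The 23 genes higher at day 4 and lower at day 12 included icl-1, cpr-5, kin-36, myo-1, myo-2 and tnt-4. At day 4 icl-1 had 3580 and 3664 CPM in mir-83 and 491 and 155 CPM in N2. At day 4 cpr-5 had 335 and 351 CPM in mir-83 and 87.7 and 36.2 CPM in N2, and myo-2 had 48.6 and 51.2 CPM in mir-83 and 6.43 and 2.39 CPM in N2. In each, both mir-83 libraries were above both N2 libraries at day 4 and below them at day 12. The effect at day 12 minus that at day 4 was -4.81 ± 0.63 for icl-1 (SE, edgeR adjusted p = 0.0548), which was the smallest adjusted p of this comparison. It was -4.96 ± 0.85 for cpr-5, -6.05 ± 1.04 for myo-2, -5.55 ± 0.92 for myo-1 and -4.88 ± 0.83 for kin-36 (SE, edgeR adjusted p = 0.0585 each). No gene passed this test of the difference of effects, and 2911 genes, or 18.4%, had an unadjusted p under 0.05. DESeq2 called 1333 genes, these 5 among them. The edgeR count was 551 without replicate 1 of mir-83 at day 12, 512 without its replicate 2, 36 without replicate 1 of N2 at day 4 and 2 without replicate 1 of N2 at day 12. It was 1744 with plain library sizes, so the 0 rests on these choices. These genes were named after their values were seen.

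**Figure D5:**
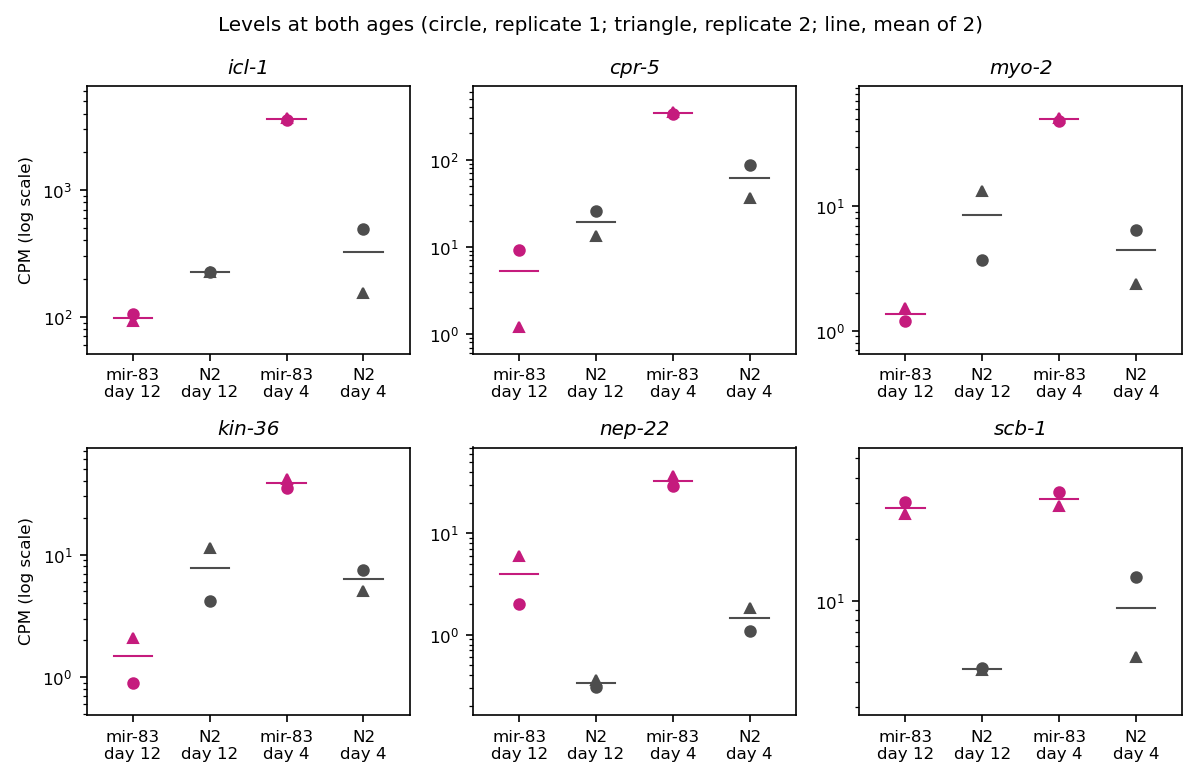
Levels in CPM (log axis) of 6 genes in all 8 libraries, with mir-83 left of N2 within each age and day 12 left of day 4. Circles are replicate 1, triangles replicate 2 and lines the mean of 2 libraries, and icl-1, cpr-5, myo-2 and kin-36 are below N2 at day 12 and above it at day 4, whereas nep-22 and scb-1 are above N2 at both ages.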

How the data were processed

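RNA of whole worms was sequenced in 8 libraries, and the table deposited by the authors holds raw read counts for transcripts, with a sheet for replicate 1 and another for replicate 2. The tools Bowtie2 and edgeR and the build ce11 are named in the submitters' processing notes, without versions or roles, and the sources used here do not give trimming, counting or strand settings. Transcripts were matched to genes of WBcel235 (by sequence name in the sheet of replicate 1, and in that of replicate 2 24022 by accession and 4727 by gene name) and summed. Unmatched transcripts held 0.084% and 0.241% of reads. The 18291 genes in both sheets were kept, and filterByExpr left 15847. Overlapping, antisense and near-identical genes cannot be told apart.

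The test was edgeR 4.0.16 (glmQLFit, glmQLFTest) with TMM factors, on all 8 libraries, with a mean per group and a replicate block, with 3 residual degrees of freedom and a common biological coefficient of variation of 0.429. It was also run on simulated counts with no deviation shared within a replicate, which cannot show how the test performs on these libraries. Tests were two-sided, with p adjusted over all genes by the method of Benjamini and Hochberg, and standard errors were derived from the F statistic. Log2 CPM within replicates used a prior count of 2. The block rests on the sheets, which use different annotations, and on the labels, in which replicate 1 libraries of an age share a run code. Deviations of same-numbered libraries correlated between 0.121 and 0.416 across genes over the 6 pairs of groups. DESeq2 1.42.0 and R 4.3.3, with Python 3.11.15, were used for alternatives and tables.

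Genes were named by a rule. Among genes with a symbol of letters and a number and at least 10 reads on average over the day 12 libraries, it took the 12 each way of lowest p whose replicates shared a direction, and the 10 each way with the widest difference between replicates. It added up to 4 genes of each list by p and up to 3 by level, the miR-83 list and genes called by DESeq2. The genes alg-1, alg-2, col-19, myo-3, sdz-28, tni-4, unc-15, unc-54, vit-3 and those near mir-83 or called a copy fall outside it and were picked after their values were seen. Gene lists and members were chosen with earlier results of these data known. No 3′ UTR seed sites were analysed here.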

Additional observations from a re-analysis of the deposited data

How the results depend on the processing

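At day 12, edgeR called 0 genes in all 15 other settings run: RLE size factors, plain library sizes, no filter, no replicate block, the replicate block within age, the 4 day 12 libraries alone with or without the block, and each library left out in turn (range 0 to 0). With 306 genes at an unadjusted p under 0.05 in the main setting, only DESeq2 made calls, 4. The 12 genes per direction and those called by DESeq2 kept their direction in each of these settings that tested them. The 12 per direction were chosen for a shared direction in both replicates, and all for a small p, in these same libraries. That choice favours a kept direction, so it is no independent check. The difference of effects between the ages, with 0 calls, gave 1333 with DESeq2, 34 with RLE size factors, 314 with no filter, 1744 with plain library sizes, 0 with no replicate block and 0 to 551 with a library left out. Without replicate 1 or 2 of mir-83 day 12 it gave 551 and 512, without replicate 1 of N2 day 12 it gave 2, and without replicate 1 of N2 day 4 it gave 36. The cause was not tested.

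The 42 genes at least 2-fold higher in both replicates became 207 at a fold minimum of 1.5, 2 at 4 and 76 with a prior count of 0.5, and the 94 lower became 408 and 5 at those folds. Of the list medians recomputed, 84 moved by more than the replicate spread and 259 did not. Of those that moved, 31 were without replicate 2 of mir-83 and 20 without replicate 1. Each group has 2 libraries, and what that number limits at day 12 was not tested.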
